A study of Homo sapiens with 17 samples.

Results

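Of 19141 genes counted in YB5 cells, 175 dipped after 2 h of toyocamycin and overshot the control at the last time point. They were selected on their CPM (the reads of a gene over all reads counted in the library, scaled to the same total for every library). A member had a mean of at least 10 CPM in the DMSO libraries of 2 h and a log2 ratio of at most -0.8 at 2 h and of at least 1 at 72 h. The log2 ratio compares the mean CPM plus 1 of the toyocamycin libraries with that of the DMSO libraries of the same time. Genes named ZNF plus digits were left out, and 39 of these would have passed. Among the 8922 other genes at 10 CPM or more, called expressed genes from here on, 575 passed the threshold at 2 h and 1156 that at 72 h, so the 175 members were 1.96% of the expressed genes. Since the values at 2 and 72 h chose the members, they are given as a description without a test, and only the contrasts of 10, 24 and 48 h were tested.

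Transcripts differ in how long they last, and when transcription is blocked the short-lived ones, among them immediate early genes, transcription factors and feedback regulators, are lost first. Release of RNA polymerase II from its pause near the start of a gene needs P-TEFb, the kinase CDK9 with cyclin T, which is held in reserve by an inhibitory ribonucleoprotein and brought to genes by bromodomain proteins. Immediate early genes are short, need no new protein for their induction and carry AU-rich elements that speed their decay, and many genes of the circadian clock and of the p53 response also have unstable transcripts.

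All groups are 1 engineered line, YB5, made from SW48 colon cancer cells. Its reporter is a GFP gene, inserted once, which stays silent because the cytomegalovirus promoter before it is methylated and in closed chromatin. The cells were given 250 nM toyocamycin, an adenosine analog, or its vehicle DMSO. The 8 DMSO libraries comprised 2 for 2 h, 1 each for 10, 24 and 48 h and 3 for 72 h, and the 9 toyocamycin libraries comprised 2 for 2 h, 2 for 10 h, 1 each for 24 and 48 h and 3 for 72 h. The last time is the label's 72 h here, although the study's text gives a later hour for it.

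Polyadenylated RNA was sequenced, and the reads assigned to genes numbered 8735465 to 22121364 per library. The labels place replicate 2 of each arm at 2 and 10 h in batch 2 and the other libraries in batch 1. Replicate 2 of toyocamycin at 10 h had the lowest total, and its first quartile of counts over genes was 11, against 0 to 4 in the other 16 libraries. Of 11 colorectal epithelial markers, 6 (EPCAM, CDH1, KRT8, KRT18, KRT19 and CDX2) were at 10 CPM or more in every DMSO library, while KRT20, CDX1 and LGALS4 stayed under 1 CPM. None of 8 markers of other cell types was at 10 CPM in every DMSO library, and 6 of them stayed under 1 CPM. The lowest count of any member in a toyocamycin library of 2 h was 41, so none was near the limit of detection there. At 10 h, FADD had 1.14 CPM in toyocamycin replicate 2 and WDCP 1.56 CPM in replicate 1. Both values lie close to the 1 CPM added in the log2 ratio.

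The median log2 ratio of the 175 members went from -1.06 at 2 h to -0.35 at 10 h, to 0.83 at 24 h, to 1.74 at 48 h and to 1.97 at the end. Thus on library totals the median member was cut to under its control level at 2 h, had regained part of it by 10 h and passed it by 24 h. With DESeq2 size factors the median was already 0.29 at 10 h. When libraries were scaled on the mitochondrially encoded genes it was still -0.36 at 24 h. Both toyocamycin libraries of 2 h were below both DMSO libraries of 2 h for 173 members, against a background of 25.6% of expressed genes, and below all 8 DMSO libraries for 132, against 14.1%. All 3 toyocamycin libraries of 72 h were above the 3 DMSO libraries of 72 h for all 175, against 21.7%, and above all 8 DMSO libraries for 167, against 17.2%. Nothing is read from these 4 counts, since the rule used the same libraries. GAS1 and BLOC1S4 were the exceptions at 2 h. In bulk RNA, fewer cells that express a gene and less of its RNA per cell cannot be told apart.

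The 400 genes that dipped without an overshoot had nearly the same median at 2 h, -1.04, but their medians at the later times were -1.53, -1.16, -0.59 and -0.70. Over all expressed genes the medians were -0.01, -0.71, -1.22, -1.17 and -1.29. These levels depend on the libraries' scaling. The 100 highest genes took 18.6% to 22.2% of the counts in DMSO libraries and 31.4% to 37.4% in toyocamycin libraries of 10 h and later. The distance of the members' median from that of all expressed genes was 0.35 to 0.39 for 10 h over the 4 scalings tried. It was 2.05 to 2.06 for 24 h and 2.85 to 2.93 for 48 h. A scaling multiplies every count of a library by 1 factor, so it shifts both medians nearly alike. The near-equal distances follow from that and are no test of the scaling. Together the members took 0.902% to 1.19% of all counts in DMSO libraries and 0.437% and 0.502% in the toyocamycin libraries of 2 h. Their share was 1.53% and 0.839% in those of 10 h, 3.36% at 24 h, 5.37% at 48 h and 7.83% to 9% at 72 h.

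**Figure D1:**
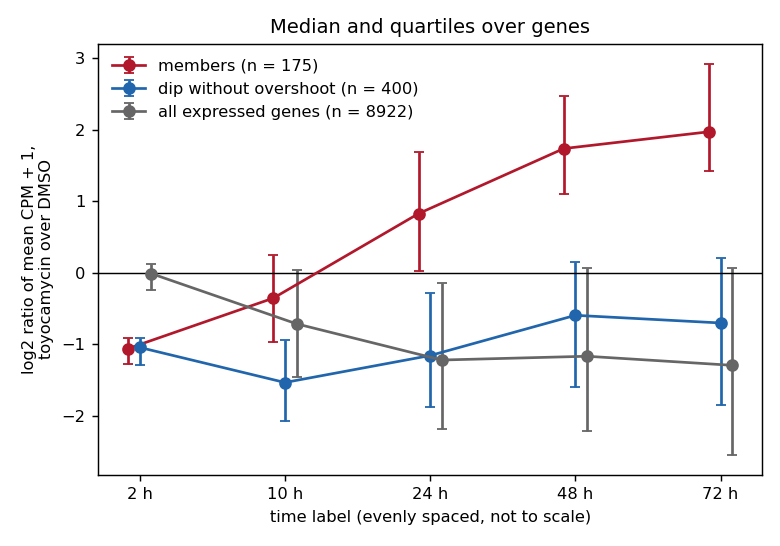
Median log2 ratio of mean CPM plus 1, toyocamycin over DMSO (y axis), at each time label (x axis, evenly spaced), with bars from the lower to the upper quartile over genes. Members start at -1.06 with the genes that only dip and end at 1.97, while the genes that only dip end at -0.70 and all expressed genes at -1.29.

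The DMSO cells also changed with time in culture. The members' DMSO mean at 72 h over that at 2 h had a median log2 ratio of -0.34, against -0.12 over all expressed genes. For 37 members (21.1%) it was -0.8 or lower, against 4.76% of expressed genes. With the DMSO libraries of 10, 24 and 48 h in place of those of 2 h, the toyocamycin libraries of 2 h gave a median of -1.05 and 129 members (73.7%) at -0.8 or lower, against 9.44% of expressed genes. With the DMSO libraries of 2 h in place of those of 72 h, toyocamycin at 72 h had a median of 1.68, with 138 members (78.9%) at 1 or more, against 11.2% of expressed genes, and 3 below 0. The median at 2 h was -1.02 between the libraries of batch 1 and -1.13 between those of batch 2, with every member below 0 in both pairs, as were 51.2% and 53.7% of expressed genes. All these values use toyocamycin libraries that chose the members and are a description.

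At the thresholds, SCAF4 and PATZ1 lay just inside the limit at 2 h, with log2 ratios of -0.803 and -0.804, and RRS1 and MED6 just outside, with -0.7999 and -0.799. SCAF4 had 46.5 and 40.1 CPM in the DMSO libraries of 2 h and 25.9 and 22.9 CPM with toyocamycin, and RRS1 had 57.4 and 35.2 and 32.9 and 19.4 CPM. PATZ1 had 112 and 95.9 against 64.7 and 53.5 CPM and MED6 28.1 and 22.3 against 15.8 and 12.3 CPM. The genes inside and outside this limit are therefore alike in size of fall. At the limit of 72 h, TET3 (35.3, 29.1 and 30.4 CPM with DMSO, 57.8, 66.2 and 71.6 CPM with toyocamycin) was inside with 1.022. CDC14A (9.18, 8.93 and 10.5 and 19.3, 17.5 and 23.2 CPM) and FLCN (25.4, 22 and 21.5 and 44.9, 45.4 and 47.3 CPM) were outside with 0.994 and 0.966. At the limit on the DMSO mean, ZSWIM6 (11.7 and 8.59 CPM) and WDR89 (8.72 and 11.7 CPM) were inside, and HBEGF (10.6 and 7.97 CPM) and ADM (12.2 and 6.3 CPM) outside. With each library of 2 or 72 h left out in turn, 102 of the 175 genes stayed members throughout, and 92 were members under all 3 other scalings.

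The time of crossing is the interval between neighbouring time labels in which the log2 ratio last turned from below 0 to 0 or above. It fell between 2 and 10 h for 55 members (31.4%), between 10 and 24 h for 77 (44%), between 24 and 48 h for 39 (22.3%) and between 48 and 72 h for 4, namely GAS1, EGR3, WNT9A and CBLB. The log2 ratio rose at every step for 74 members. For 35 it was lower at 10 h than at 2 h, and of these 35 the mean CPM with toyocamycin was lower at 10 h than at 2 h for 26 and higher for 9. Between 10 and 24 h it rose for 164, between 24 and 48 h for 154 and between 48 and 72 h for 124. The highest ratio was at 72 h for 121 members, at 48 h for 47 and at 24 h for PELO, PRAG1, FRAT2, IRF2BPL, MAD2L1BP and SOX9, while IER5L peaked at 10 h. CPEB2, EGR3, SERTAD1 and EFNA1 crossed 0 more than once. A ratio of 1 was first reached at 10 h by 13 members, and 85 had reached it by 24 h and 141 by 48 h.

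These times rest on the scaling. By 10 h, 55 members were above 0 for good with CPM, 95 with TMM factors (trimmed mean of M values, edgeR's scaling), 108 with DESeq2 size factors and 22 when libraries were scaled on the mitochondrially encoded genes. By 24 h the numbers were 132, 160, 165 and 65, and by 48 h 171, 171, 172 and 126. The mitochondrial genes took 0.917% to 3.47% of the counts in DMSO libraries and up to 6.55% in replicate 2 of toyocamycin at 10 h. The 2 toyocamycin libraries of 10 h also differed. Replicate 1 was above the DMSO library of 10 h for 65 members with a median log2 ratio of -0.30. Replicate 2, of the same batch as that DMSO library, was above it for 40 members with a median of -0.56. In replicate 1, 62.9% of members and 73.7% of expressed genes were below that library, and in replicate 2 77.1% and 74.8%. The medians over expressed genes were -0.77 and -0.70.

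**Figure D2:**
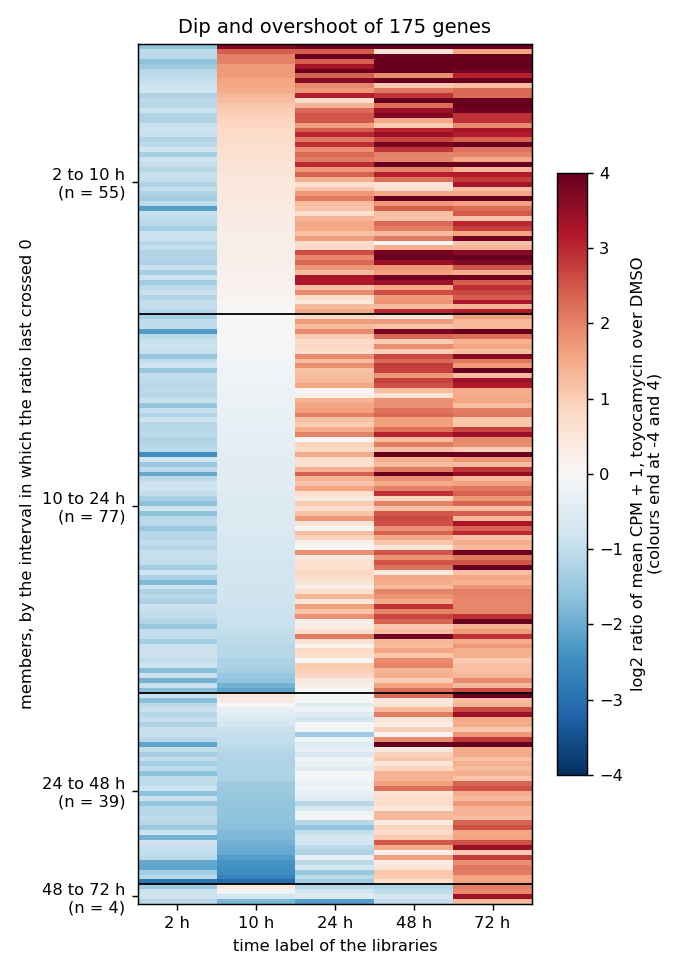
Log2 ratio of mean CPM plus 1, toyocamycin over DMSO (colour, blue below 0 and red above 0, ending at -4 and 4), of the 175 members (1 line each) at 5 time labels (x axis). Lines are grouped by the interval in which the ratio last crossed 0 and sorted by the ratio at 10 h, and the blue at 10 h deepens down the plot, from 55 members above 0 at the top to the 39 that crossed between 24 and 48 h.

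For 10 h, the quasi-likelihood test of edgeR was run on TMM-scaled counts of 16521 genes, with calls at an adjusted p under 0.1. All 175 members passed the filter on low counts. Toyocamycin raised 47 members (background 20.4% of all genes tested) and lowered 40 (background 24.4%), and 88 passed in neither direction. The median log2 fold change of the members was 0.10, against 0.42 over all genes tested and -0.27 over expressed genes. For the 981 genes that overshot without a dip it was 0.38, above that of the members. Over expressed genes, from which the members come, 21.6% were raised and 39.5% lowered, so the share of members raised, 26.9%, was above both backgrounds, and that lowered, 22.9%, was close to the one over all genes and below that over expressed genes. Of the 400 genes that dipped without an overshoot, 13 were higher at 10 h and 281 lower, with a median of -1.16. The division depends on the settings. With the mitochondrial genes as reference 3 members were called higher (1.71%, against 3.04% of all genes tested) and with library size alone 19 (10.9%, against 11.3%), and the median turned to -0.98 and -0.36. With batch as a term 43 were higher (24.6%, against 37.8%). Without replicate 1 of toyocamycin 30 members were higher (17.1%, against 39.1%) and 63 lower, with a median of -0.26. The share of members raised at 10 h is therefore not above that of all genes tested under every setting. For these other settings no share over expressed genes was computed. The p-values measure only the spread between these libraries.

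At 24 h, toyocamycin raised 152 members (background 30.7%) and lowered 3 (background 32%), RNF19A, ZFYVE1 and CBLB, with a median log2 fold change of 1.89 against 0 over the 14491 genes tested. On the mitochondrial scaling 12 members were higher (6.86%, against 2.98% of all genes tested) and 32 lower (18.3%, against 60.1%), and the median was -0.38, against -2.16 over all genes tested. At 48 h, 171 members were higher (background 39.2%) and 1 lower (background 35.5%), with a median of 2.39 against 0.16 over all genes tested. GAS1, EGR3, WNT9A and CBLB were not called higher, and EGR3 was the 1 lower. On the mitochondrial scaling 39 were higher (22.3%, against 11.2% of all genes tested) and 4 lower (2.29%, against 51.2%). At both times each arm has 1 library, whose spread is assumed to be that of the replicates of the other times. No p is therefore given for a single gene. The 981 genes that overshot without a dip had similar median log2 fold changes, 1.72 at 24 h and 2.12 at 48 h. A rise at these times is therefore not particular to the members.

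The size of the rise from 10 to 48 h rests on libraries that did not choose the members, while its spread was estimated over all 17 libraries, those of 2 and 72 h included. The toyocamycin effect was higher at 48 h than at 10 h for 151 members (background 20.1%) and lower for 2 (background 20%), EGR3 and IER5L. The median change was 2.47 on the log2 scale, against -0.18 over all genes tested, -0.18 over expressed genes and 0.97 over the genes that dipped without an overshoot, of which 187 rose and 14 fell. The 981 genes that overshot without a dip had a median change of 1.71. The median for the members was 1.75 on the mitochondrial scaling, with 31 members called higher (17.7%, against 2.26% of all genes tested).

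**Figure D3:**
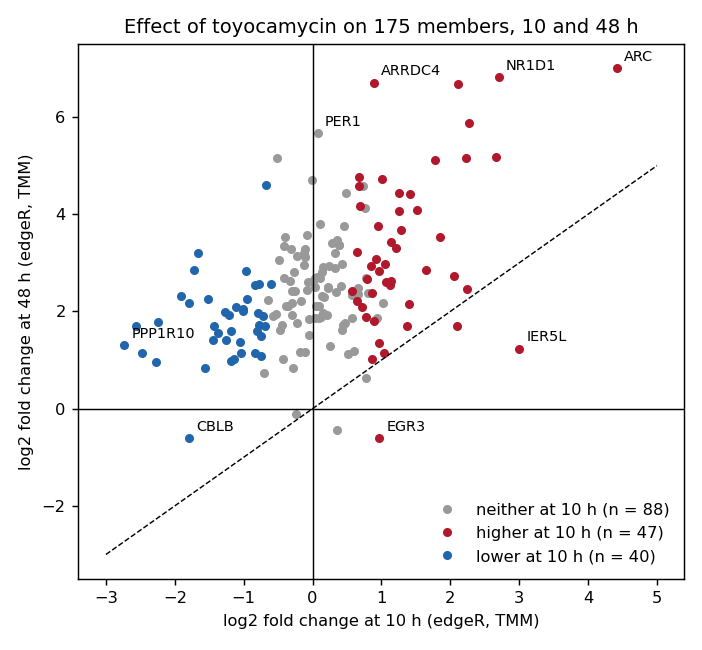
Log2 fold change of the 175 members at 48 h (y axis) against that at 10 h (x axis), edgeR on TMM-scaled counts, coloured by the call at 10 h, with the dashed line where both are equal. Members called higher, lower or neither at 10 h nearly all sit above the line, with IER5L and EGR3 among those under it.

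The promoters of members that carry an E-box, the palindrome CACGTG bound by CLOCK and BMAL1, by MYC with MAX and by the glucose-responsive MondoA with MLX, are shown for the 3 genes with one among the 8 largest swings from 2 to 72 h. A window from 250 bases before to 50 after the start of transcription was given by RefSeq (GRCh38.p14) for 145 of the 175 members, and where a gene had several the first was used. The sequences below are the 250 bases before the start, in the direction of transcription, with the motif in capitals. PER1 lies at chr17:8152405-8152654 on the minus strand, ARRDC4 at chr15:97960453-97960702 on the plus strand and CITED2 at chr6:139374649-139374898 on the minus strand.
PER1: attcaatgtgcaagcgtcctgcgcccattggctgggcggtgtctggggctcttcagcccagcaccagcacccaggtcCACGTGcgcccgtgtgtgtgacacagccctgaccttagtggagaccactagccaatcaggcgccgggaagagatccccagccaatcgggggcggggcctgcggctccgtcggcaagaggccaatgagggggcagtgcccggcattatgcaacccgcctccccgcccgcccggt
ARRDC4: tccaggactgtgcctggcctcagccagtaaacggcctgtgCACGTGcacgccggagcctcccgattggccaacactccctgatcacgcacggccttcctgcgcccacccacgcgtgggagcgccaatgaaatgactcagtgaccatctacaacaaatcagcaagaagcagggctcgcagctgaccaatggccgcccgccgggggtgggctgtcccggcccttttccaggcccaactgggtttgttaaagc
CITED2: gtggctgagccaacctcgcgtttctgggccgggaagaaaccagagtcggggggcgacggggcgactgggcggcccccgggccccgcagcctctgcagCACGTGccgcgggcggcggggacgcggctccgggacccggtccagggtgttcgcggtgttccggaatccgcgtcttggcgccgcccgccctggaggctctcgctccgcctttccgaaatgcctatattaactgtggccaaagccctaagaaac
CACGTG, which reads the same on both strands, was found in 23 of 145 member windows (15.9%) and in 11% of those of expressed genes. It was in 8.41% of those of genes that dipped without an overshoot and 10.9% of those that overshot without a dip. Of all 27305 windows 7.44% held it.

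A cAMP response element, TGACGTCA, also a palindrome, was found in 7 member windows (4.83%), against 3.63% for expressed genes, 6.32% for genes that overshot without a dip and 1.98% for all windows. Among its holders are PPP1R15A (chr19:48872171-48872420, plus strand) and PPM1D (chr17:60599943-60600192, plus strand). They are shown because both encode feedback regulators of stress pathways and are described with their groups.
PPP1R15A: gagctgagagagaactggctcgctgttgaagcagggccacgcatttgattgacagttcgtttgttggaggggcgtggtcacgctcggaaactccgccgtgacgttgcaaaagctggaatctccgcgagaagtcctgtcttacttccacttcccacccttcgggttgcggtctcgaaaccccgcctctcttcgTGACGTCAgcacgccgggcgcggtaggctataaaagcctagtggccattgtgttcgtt
PPM1D: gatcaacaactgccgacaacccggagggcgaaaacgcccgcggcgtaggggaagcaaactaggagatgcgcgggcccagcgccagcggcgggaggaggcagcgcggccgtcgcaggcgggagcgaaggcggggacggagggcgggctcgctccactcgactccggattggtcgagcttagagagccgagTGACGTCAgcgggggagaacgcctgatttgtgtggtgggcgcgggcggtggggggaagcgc
TGANTCA, the AP-1 site, was in 6.90% of member windows, 3.73% of those of expressed genes and 7.76% of all windows, and the TATA motif TATAAA in 7.59%, 4.57% and 11.95%. CCAAT was in 41.4%, 36.7% and 35.7% and GGGCGG in 75.2%, 74.5% and 44.6%, all searched on both strands. No motif of the 6 contains another, and a match describes the letters and not a bound site.

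Immediate early genes, the transcripts that cells induce within minutes of a stimulus, gave 11 members of 36 expressed genes of the list (30.6%, against 1.96% of all expressed genes). Of the 11, 7 were higher and 0 lower at 10 h, against 20.4% and 24.4% of all genes tested. Their median log2 ratios were 0.62, 1.75 and 2.12 at 10, 24 and 48 h, against -0.35, 0.83 and 1.74 over all members. In 7 of the 11 immediate early members the ratio last crossed 0 between 2 and 10 h. EGR3 was also above 0 at 10 h but was below it again at 48 h.

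ARC, which encodes a cytoskeletal protein of synaptic plasticity with a capsid-like fold, had the largest swing of all members. It ranged from 8.13 to 46.4 CPM (median 17.1) in the DMSO libraries and had 46.4 and 28.4 CPM in those of 2 h. With toyocamycin it had 16.3 and 6.97 CPM at 2 h, 190.1 and 45.7 CPM in the 10 h libraries, 488 in the 24 h library, 2429 in the 48 h library and 3752, 5315 and 5524 in the 72 h libraries. Every toyocamycin library from 24 h on was above all DMSO libraries, while replicate 2 of 10 h lay within their range. The mean at 72 h was 4864 ± 968 CPM (SD, n = 3) with toyocamycin and 13.5 ± 3.02 (SD, n = 3) with DMSO. The log2 fold change at 10 h was 4.42 (SE 0.82, edgeR adjusted p = 6.0e-04).

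NR4A1, an orphan nuclear receptor induced by many stimuli (chr12:52022832-52059507, plus strand), ranged from 87.5 to 332 CPM (median 146) with DMSO, including 155 and 95.9 CPM at 2 h. Toyocamycin gave 56.6 and 35.3 CPM at 2 h, 461 and 114 in the 10 h libraries, 3309 in the 24 h library, 8334 in the 48 h library and 16208, 21419 and 19597 in the 72 h libraries. Here too the libraries from 24 h on were above every DMSO library and replicate 2 of 10 h was not. At 10 h its log2 fold change was 2.28 (SE 0.65, edgeR adjusted p = 0.012).

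JUN, a subunit of the AP-1 transcription factor made from a single exon, had 163 and 95.4 CPM in the DMSO libraries of 2 h and 80.2 and 43.1 CPM with toyocamycin. The later toyocamycin libraries had 363 and 122 CPM in the 10 h libraries, 615 in the 24 h library, 1107 in the 48 h library and 1366, 1586 and 1519 in the 72 h libraries. Its control was not steady, since DMSO gave 380.0 CPM in the 24 h library and 40.4, 34.2 and 21.8 CPM in the 72 h libraries. For 10, 24 and 48 h the log2 ratio was accordingly 1.23, 0.69 and 4.49, and the edgeR log2 fold change at 10 h was 1.78 (SE 0.60, adjusted p = 0.03). FOSL2, another AP-1 subunit, ranged from 70 to 159.7 CPM (median 92.9) with DMSO. It had 52.5 and 40 CPM at 2 h with toyocamycin, against 93.6 and 70 with DMSO, then 239.9 and 123 in the 10 h libraries, 582 in the 24 h library, 654 in the 48 h library and 374, 435 and 410.1 in the 72 h libraries, and was higher at 10, 24 and 48 h.

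EGR3, a zinc-finger transcription factor and 1 of the 4 members that crossed 0 more than once, had an irregular course. Toyocamycin gave 28.3 and 24.7 CPM at 2 h, 91.7 and 64.4 in the 10 h libraries, 52.6 in the 24 h library, 68.9 in the 48 h library and 200.0, 240.5 and 216 in the 72 h libraries. The DMSO libraries gave 80.5 and 68.9 CPM at 2 h, 56.3 in the 10 h library, 116 in the 24 h library, 161 in the 48 h library and 55.2, 47.8 and 52.8 in the 72 h libraries, so the single control libraries of 24 and 48 h were the highest of the 8. Its log2 fold change was 0.97 at 10 h (SE 0.29, edgeR adjusted p = 0.016), then -0.12 at 24 h and -0.61 at 48 h.

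KLF4, a factor of differentiated gut epithelium, had 408 and 268 CPM with DMSO and 181 and 125 CPM with toyocamycin at 2 h. It reached 664 and 315 CPM in the 10 h libraries, 1136 in the 24 h library, 629.7 in the 48 h library and 1363, 1762 and 1684 in the 72 h libraries, in a DMSO range from 268 to 801 CPM (median 646). The library of 48 h lay inside the range of the controls and those of 72 h above it, and at 10 h the change did not pass (log2 fold change 0.77, SE 0.43, edgeR adjusted p = 0.17). IER5L, made from a single exon, had its highest log2 ratio at 10 h. Its DMSO values were 27 and 19 CPM at 2 h, 30.8 in the 10 h library, 33.8 in the 24 h library, 77.8 in the 48 h library and 113, 109 and 60.9 in the 72 h libraries. Toyocamycin gave 11.6 and 9.57 CPM at 2 h, 253 and 87.2 in the 10 h libraries, 185 in the 24 h library, 119.8 in the 48 h library and 264, 296 and 300.1 in the 72 h libraries. The control rose over the course, and the log2 ratio went from 2.42 at 10 h to 0.62 at 48 h, a change that edgeR called lower.

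BTG2, an antiproliferative protein that recruits the CCR4-NOT deadenylase and is also a p53 target, had one of the deepest dips. It had 36.2 and 34.2 CPM with DMSO at 2 h, in a range from 26.6 to 50.6 CPM (median 36.7) over the controls, and 6.57 and 6.72 CPM with toyocamycin. Later toyocamycin libraries had 47.1 and 28.6 CPM in the 10 h libraries, 190.5 in the 24 h library, 379 in the 48 h library and 633, 592 and 549 in the 72 h libraries. It was thus lowest at 2 h, level with the control at 10 h (log2 fold change 0.48, SE 0.31, edgeR adjusted p = 0.22) and above all DMSO libraries from 24 h. ZFP36L2, which binds AU-rich elements and promotes decay, was the most abundant member by its DMSO mean at 2 h. Its controls ranged from 463 to 1324 CPM (median 664) with 815 and 476 CPM at 2 h, and toyocamycin gave 445 and 291 CPM at 2 h, 3143 and 918 in the 10 h libraries, 4446 in the 24 h library, 3136 in the 48 h library and 2181, 3247 and 2739.9 in the 72 h libraries. Its DMSO library of 24 h was the highest control, and toyocamycin replicate 2 of 10 h lay below it, with a log2 fold change of 2.05 at 10 h (SE 0.61, edgeR adjusted p = 0.016).

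MCL1, a short-lived guardian against apoptosis, had 281 and 282 CPM with DMSO and 127 and 125 CPM with toyocamycin at 2 h. It recovered slowly, with 169.6 and 105 CPM in the 10 h libraries, 251 in the 24 h library, 367 in the 48 h library and 438, 425 and 465 in the 72 h libraries against a control range from 166 to 282 CPM (median 232). The libraries of 48 and 72 h were above all controls, and that of 24 h within their range. PPP1R15A (GADD34), the inducible subunit that brings protein phosphatase 1 to eIF2, had 36.9 and 38.2 CPM at 2 h, 55.5 and 35.6 in the 10 h libraries, 87.5 in the 24 h library, 266 in the 48 h library and 674, 681 and 695 in the 72 h libraries. Its controls ranged from 56.9 to 124 CPM (median 65.2), with 95.1 and 70.6 CPM at 2 h, so it stayed within or below them until 24 h. PPP1R15B, its constitutive counterpart, was also a member, with log2 ratios of -1.40, 1.55 and 2.75 at 2, 24 and 72 h.

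**Figure D4:**
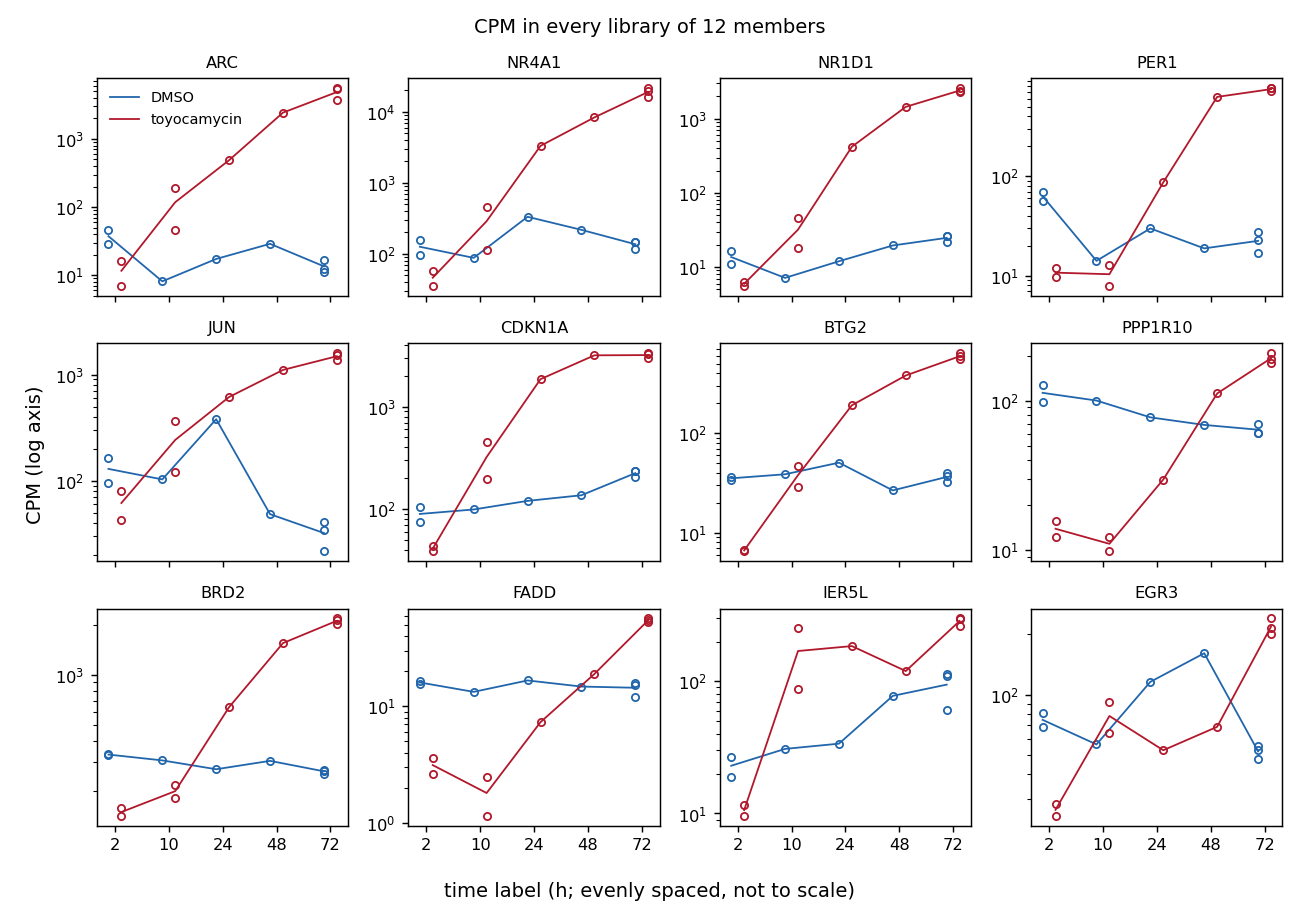
CPM of 12 members (y axis, log scale) in every library at each time label (x axis, evenly spaced), with open circles for libraries and lines through the means of DMSO (blue) and toyocamycin (red). The red circles lie below the blue at 2 h and above them at 72 h in all 12 panels, while the lines cross before 10 h for ARC and NR4A1 and after 24 h for PPP1R10 and FADD.

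Of the 15 expressed clock genes, 5 were members (33.3%). The clock is a feedback loop in which PER proteins repress CLOCK and BMAL1, and the REV-ERB receptors NR1D1 and NR1D2 repress BMAL1. At 10 h 1 of the 5 members was higher and 1 lower, against 20.4% and 24.4% of all genes tested. Their median log2 ratios were -0.41, 0.78 and 2.92 at 10, 24 and 48 h, against -0.35, 0.83 and 1.74 over all members.

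NR1D1 (chr17:40092793-40100589, minus strand) had 16.4 and 10.9 CPM with DMSO at 2 h and 6.33 and 5.58 CPM with toyocamycin. It rose to 45.8 and 18.3 CPM in the 10 h libraries, 420.4 in the 24 h library, 1450.4 in the 48 h library and 2299, 2579 and 2343 in the 72 h libraries, while the controls ranged from 7.16 to 26.6 CPM (median 18). From 24 h on it was above every control, and at 10 h its log2 fold change was 2.7 (SE 0.50, edgeR adjusted p = 6.0e-04). Its exons overlap those of THRA, which lies on the other strand, and the counting's strand setting was not given in the sources used here.

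PER1 (chr17:8140472-8156506, minus strand), whose promoter is shown above, had 69.5 and 56.4 CPM in the DMSO libraries of 2 h, the highest of its controls, and 14.1 CPM in that of 10 h, the lowest. Toyocamycin gave 11.8 and 9.64 CPM at 2 h, 12.8 and 7.9 in the 10 h libraries, 86.6 in the 24 h library, 624 in the 48 h library and 719, 762 and 760.4 in the 72 h libraries. The level was similar at 2 and 10 h and above every control from 24 h, and the change at 10 h did not pass (log2 fold change 0.08, SE 0.35, edgeR adjusted p = 0.86). PER2 had 18.5 and 13.1 CPM with DMSO at 2 h and 5.2 and 3.55 CPM with toyocamycin, then 3.42 and 5.61 in the 10 h libraries, 13 in the 24 h library, 45.9 in the 48 h library and 47, 53 and 54.1 in the 72 h libraries, in a control range from 12.1 to 19.7 CPM (median 17.2). It was still lower at 10 h (log2 fold change -1.01, SE 0.28, edgeR adjusted p = 0.011) and above all controls from 48 h.

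NR1D2 ranged from 29.9 to 127 CPM (median 62.2) with DMSO and had 73.9 and 127 CPM at 2 h. With toyocamycin it had 45.2 and 57.2 CPM at 2 h, 44 and 63.8 in the 10 h libraries, 115 in the 24 h library, 233 in the 48 h library and 291, 220.2 and 219 in the 72 h libraries, so it overlapped the controls until 24 h.

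The list of P-TEFb and elongation factors gave 4 members of 28 expressed genes (14.3%). The number called higher was 0 at 10 h, with 1 lower, against 20.4% and 24.4% of all genes tested. Median log2 ratios of the 4 were -0.36, 1.24 and 1.76 at 10, 24 and 48 h, against -0.35, 0.83 and 1.74 over all members.

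PPP1R10 (PNUTS), which targets protein phosphatase 1 to elongating RNA polymerase II and its termination, had the deepest dip of the 175. Its controls ranged from 60.6 to 127 CPM (median 73.7), with 127 and 97.8 CPM at 2 h, and toyocamycin left 15.5 and 12.2 CPM at 2 h and 9.85 and 12.1 CPM in the 10 h libraries. Recovery came late, with 29.6 CPM in the 24 h library, 111 in the 48 h library and 179, 190.1 and 207 in the 72 h libraries. The libraries of 2, 10 and 24 h were below every control, that of 48 h was within their range and those of 72 h were above it. The log2 fold change at 10 h was -2.73 (SE 0.23, edgeR adjusted p = 9.1e-07), the lowest among members.

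BRD2, a bromodomain reader of acetylated histones, had 333 and 331 CPM with DMSO at 2 h and 142 and 158 CPM with toyocamycin. It had 218 and 182 CPM in the 10 h libraries, 639.9 in the 24 h library, 1551 in the 48 h library and 2134, 2018 and 2183 in the 72 h libraries against controls from 255 to 333 CPM (median 288), that is, below them at 10 h and above them from 24 h. CCNT1, the cyclin T1 subunit of P-TEFb, had 68 and 93.7 CPM with DMSO and 36.7 and 44.5 CPM with toyocamycin at 2 h. Its later toyocamycin values were 68 and 89.9 CPM in the 10 h libraries, 143 in the 24 h library, 278 in the 48 h library and 296, 238 and 252 in the 72 h libraries in a control range from 53.9 to 93.7 CPM (median 63.7). It was level with the controls at 10 h and above all of them afterwards. CDK13, a kinase of the elongating polymerase in a gene of 149460 bp, had 127 and 92.6 CPM with DMSO and 74 and 39.2 CPM with toyocamycin at 2 h, and then 174 and 79.7 in the 10 h libraries, 324 in the 24 h library, 303 in the 48 h library and 218, 282 and 290.5 in the 72 h libraries in a control range from 92.6 to 133 CPM (median 117). Its libraries from 24 h on were above all controls. At 10 h these 3 genes had log2 fold changes of -0.13, 0.33 and 0.57 (edgeR adjusted p = 0.66, 0.29 and 0.3), none of which passed.

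Of 25 expressed p53 targets, 7 were members (28.0%): TIGAR, CDKN1A, SESN2, BTG2, PPM1D, AEN and SERTAD1. At 10 h 6 of them were higher and 0 lower, against 20.4% and 24.4% of all genes tested. Their median log2 ratios were 0.37, 1.89 and 3.42 at 10, 24 and 48 h, against -0.35, 0.83 and 1.74 over all members. TIGAR, a phosphatase that diverts glucose to the pentose phosphate pathway (chr12:4307763-4360028, plus strand), had 11.2 and 16.7 CPM with DMSO at 2 h and 6.03 and 7.35 CPM with toyocamycin. It rose to 31.3 and 41.6 CPM in the 10 h libraries, 105 in the 24 h library, 279.7 in the 48 h library and 401, 361 and 338 in the 72 h libraries, and from 10 h on every library was above the controls, which ranged from 4.16 to 16.7 CPM (median 6.32). Its log2 fold change at 10 h was 2.12 (SE 0.29, edgeR adjusted p = 4.3e-05).

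CDKN1A, the cell cycle inhibitor p21, went from a log2 ratio of -1.11 at 2 h to 1.69, 3.94, 4.53 and 3.83 at the following times. SESN2, a stress-induced inhibitor of mTORC1 signalling, fell further, from 36.7 and 25.8 CPM with DMSO at 2 h to 6.72 and 5.2 CPM with toyocamycin. It had 29 and 15.7 CPM in the 10 h libraries, 53.2 in the 24 h library, 115 in the 48 h library and 113, 117 and 124 in the 72 h libraries, in a control range from 17 to 36.7 CPM (median 23.1), and lay above all controls from 24 h. PPM1D, the WIP1 phosphatase that dampens p53 signalling and whose promoter is shown above, had log2 ratios of -0.86, 0.97, 2.27, 3.42 and 3.85 at the 5 times. The exonuclease gene AEN and the cell cycle cofactor SERTAD1 were higher at 10 h by 0.65 and 0.86 on the log2 scale (edgeR adjusted p = 0.094 and 0.077).

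KDM6B, a demethylase of histone H3 lysine 27 (chr17:7834217-7854796, plus strand), had 50.4 and 36.1 CPM with DMSO at 2 h and 18 and 11.1 CPM with toyocamycin. Its toyocamycin values were 32.2 and 11.7 CPM in the 10 h libraries, 88.6 in the 24 h library, 510.1 in the 48 h library and 1573, 1867 and 1824 in the 72 h libraries, in a control range from 24.6 to 75.3 CPM (median 41.9). It was within or below the controls at 10 h (log2 fold change 0.39, SE 0.48, edgeR adjusted p = 0.51) and above them from 24 h. The list of histone methyltransferases and demethylases gave 3 members of 44 expressed genes (6.82%), the others being KDM6A and KMT2E. The 3 had median log2 ratios of 0.20 at 24 h and 1.63 at 48 h, against 0.83 and 1.74 over all members.

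CITED2, a co-regulator that binds CBP and p300 (chr6:139371807-139374648, minus strand) and whose promoter is shown above, had 51.7 and 40.7 CPM with DMSO and 25.9 and 18.3 CPM with toyocamycin at 2 h. It then had 121 and 35.8 CPM in the 10 h libraries, 489.5 in the 24 h library, 514 in the 48 h library and 1981, 2535 and 2377 in the 72 h libraries, against controls from 36 to 64.3 CPM (median 47.8). Replicate 2 of 10 h lay just below the controls and replicate 1 above them, with a log2 fold change of 1.25 (SE 0.54, edgeR adjusted p = 0.082). SOX9, a factor of intestinal progenitor cells, had 511 and 297 CPM with DMSO and 264 and 192 CPM with toyocamycin at 2 h, then 1838 and 725 in the 10 h libraries, 2757 in the 24 h library, 1493 in the 48 h library and 1161, 1514 and 1471 in the 72 h libraries, with controls from 297 to 733 CPM (median 564). It peaked at 24 h and stayed above all controls to 72 h, and its log2 fold change at 10 h was 2.09 (SE 0.51, edgeR adjusted p = 0.0048). The repressor BCL6 and the T-box factor TBX3 rose late, with log2 ratios of -0.88 and -0.74 at 10 h and of 4.55 and 5.19 at 72 h. GTF2E1, a subunit of the general factor TFIIE, had -2.04, 2.40 and 3.51 at 2, 24 and 72 h.

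ZBTB zinc-finger genes, which pair a BTB domain with zinc fingers, gave 5 members of 33 expressed genes (15.2%), ZBTB5, ZBTB6, ZBTB9, ZBTB11 and ZBTB48. At 10 h 1 of the 5 was higher and 2 were lower, against 20.4% and 24.4% of all genes tested. Their median log2 ratios were -0.44, 1.39 and 2.05 at 10, 24 and 48 h, against -0.35, 0.83 and 1.74 over all members. ZBTB48, which binds telomeric repeats, had log2 ratios of -1.99, -1.06 and 3.42 at 10, 24 and 72 h, whereas ZBTB5 had 0.21, 2.31 and 3.72 and ZBTB6 0.00, 1.53 and 3.16. Other DNA-binding members among the 40 with the largest swing were ZKSCAN5, ARID3B and MSANTD4, with log2 ratios of 3.38, 3.30 and 3.64 at 72 h. ARID3B stood at 0.51 at 48 h, so most of its rise came after that time.

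Ubiquitin ligase genes of the RING, F-box, KLHL and SOCS families gave 14 members of 162 expressed genes (8.64%), and ubiquitin proteases 4 of 47 (8.51%). At 10 h 3 of the 14 listed ligases were higher and 3 lower, against 20.4% and 24.4% of all genes tested. Their median log2 ratios were -0.36, 0.84 and 1.53 at 10, 24 and 48 h, close to the -0.35, 0.83 and 1.74 of all members. The list does not hold every ligase gene. Left out are BIRC3, with log2 fold changes of 3.76 and 5.19 at 24 and 48 h, and the RING ligase gene CBLB, with -1.74 and -0.60. SOCS4 and KLHL21 had log2 ratios of -0.92 and -0.87 at 2 h and of 4.28 and 3.82 at 72 h. Of the proteases, OTUD1 had -0.96 and 3.27. MIDN, or midnolin, which carries nuclear proteins to the proteasome, had -1.10, 1.08 and 4.33 at 2, 10 and 72 h.

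BIRC3, a RING ligase that inhibits apoptosis downstream of NF-kappaB, was the 1 member of 12 expressed genes of NF-kappaB feedback (8.33%). It had 7.25 and 14.2 CPM with DMSO and 2.5 and 3.11 CPM with toyocamycin at 2 h, and then 21.5 and 21.6 in the 10 h libraries, 23 in the 24 h library, 49.1 in the 48 h library and 121, 96.1 and 99.3 in the 72 h libraries, in a control range from 1.65 to 14.2 CPM (median 3.67). The controls of 2 h were its highest, and all toyocamycin libraries from 10 h exceeded them, with a log2 fold change of 2.66 at 10 h (SE 0.44, edgeR adjusted p = 2.6e-04). ERRFI1, an inhibitor of the EGF receptor, was the 1 member of 14 expressed genes of MAPK feedback (7.14%). It had 33.3 and 36.7 CPM with DMSO and 13 and 16.2 CPM with toyocamycin at 2 h, and with toyocamycin 71.5 and 45.8 in the 10 h libraries, 135 in the 24 h library, 129 in the 48 h library and 299, 269 and 284 in the 72 h libraries, against controls from 23.2 to 44.4 CPM (median 33.8). All toyocamycin libraries from 10 h were above all controls, and its log2 fold change at 10 h was 1.40 (SE 0.33, edgeR adjusted p = 0.0034).

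The arrestin-domain relatives ARRDC4 and TXNIP, which restrain glucose uptake, were both members. ARRDC4 (chr15:97960703-97973833, plus strand), whose promoter is shown above, had 89.4 and 89.9 CPM with DMSO and 36.4 and 30.9 CPM with toyocamycin at 2 h. Toyocamycin gave 111 and 83.5 CPM in the 10 h libraries, 318 in the 24 h library, 351 in the 48 h library and 337, 305 and 341 in the 72 h libraries, a nearly flat course after 24 h. The controls fell instead, from 75.2 CPM in the 24 h library to 5.1 CPM in the 48 h library and 4.51, 3.83 and 3.85 CPM in the 72 h libraries, so the log2 ratio went from 2.07 at 24 h to 5.85 at 48 h. TXNIP fell in the same controls, from 232 and 212 CPM at 2 h and 248 CPM in the 24 h library to 7.04 CPM in the 48 h library and 10.00, 8.27 and 11.7 CPM in the 72 h libraries. With toyocamycin it had 45.3 and 56.6 CPM at 2 h, 138 and 90.6 in the 10 h libraries, 168 in the 24 h library, 165 in the 48 h library and 201, 174 and 176 in the 72 h libraries, which does not pass its own control level of 2 h. The log2 ratio of both genes at 48 and 72 h thus rests on a fall in DMSO as well as on the level with toyocamycin.

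Some members were still far below their controls at 10 h. WDCP, a WD repeat protein gene, had 13.6 and 14.4 CPM with DMSO and 2.01 and 2.92 CPM with toyocamycin at 2 h, then 1.56 and 3.78 in the 10 h libraries, 7.55 in the 24 h library, 14.9 in the 48 h library and 41.2, 34.1 and 36.9 in the 72 h libraries, with controls from 6.81 to 19 CPM (median 11.6). FADD, the adaptor that couples death receptors to caspase-8, had 16.5 and 15.6 against 2.65 and 3.61 CPM at 2 h, and with toyocamycin 2.46 and 1.14 CPM in the 10 h libraries, 7.32 in the 24 h library, 19 in the 48 h library and 57, 53.2 and 54.9 in the 72 h libraries, with controls from 11.9 to 16.7 CPM (median 15.5). In both genes the toyocamycin libraries of 2 and 10 h were below all controls and those of 72 h above them. ZBED5 had 16.9 and 22.8 against 9.51 and 7.42 CPM at 2 h, then 3.12 and 5.72 CPM in the 10 h libraries, 14 in the 24 h library, 33.4 in the 48 h library and 70.2, 57.4 and 57.8 in the 72 h libraries, with controls from 15.7 to 34.4 CPM (median 20.4). ZFYVE1, a marker of the membranes on which autophagosomes form, had 21.6 and 20.1 against 6.86 and 7.86 CPM at 2 h, then 5.1 and 9.39 CPM in the 10 h libraries, 10.3 in the 24 h library, 29.6 in the 48 h library and 59.1, 60.5 and 57.8 in the 72 h libraries, with controls from 12.8 to 45.3 CPM (median 16.9). Both were below all controls from 2 to 24 h, within their range at 48 h and above them at 72 h. These 4 genes and PPP1R10 had the 5 lowest log2 fold changes at 10 h, at -2.48, -2.28, -2.56 and -2.24 for the 4 (edgeR adjusted p = 2.4e-05, 1.2e-04, 1.3e-05 and 4.0e-06).

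Genes that act on RNA are given next, some of the 40 with the largest swing and some chosen here after their values were seen. In cleavage and polyadenylation, PCF11 had log2 ratios of -1.05, 0.54 and 3.28 at 2, 24 and 72 h, CSTF1, at the same times, of -1.27, 0.66 and 2.01 and CSTF2T of -1.05, -0.33 and 2.81. In translation control and decay, CPEB2 had -0.87, -0.02 and 5.15 and YTHDF2, a reader of N6-methyladenosine, -1.12, 1.54 and 3.19. In ribosome biogenesis, UTP3 had -0.93, 1.82 and 3.87, UTP23 -1.08, 1.98 and 3.42 and NUFIP1, an assembly factor of small nucleolar ribonucleoproteins, -0.83, 3.26 and 3.88. On the TMM scale the log2 fold changes of these genes at 24 h went from 0.68 for CSTF2T to 4.44 for NUFIP1. Nothing is read from their shared direction, since some were chosen after their values were seen. The remaining genes of the 40 were the tyrosine kinase ABL2, the sulfurtransferase MOCS3 and the autophagy factor SMCR8, with log2 ratios of 4.63, 3.64 and 2.62 at 72 h.

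Several lists held no member. None came from 149 expressed solute carriers, 73 cytosolic ribosomal proteins, 25 SR splicing factors and CLK kinases, 19 heat shock proteins and chaperones, 18 FOX factors, 15 HOX genes, 14 histones or 13 DUSP phosphatases, and also none from 11 genes of BMP and TGF-beta feedback, 9 of Wnt feedback, 7 ID, HES and HEY factors and 1 protocadherin. The list of long noncoding RNA symbols had 0 expressed genes. Of the SR and CLK genes, 17 of 25 reached the threshold at 72 h and 0 that at 2 h, so they overshot without a dip. Lists that gave 2 members were the cyclins and CDK inhibitors with 2 of 21 (9.52%, CDKN1A and CDKN1B) and the ATF4 and CHOP targets with 2 of 13 (15.4%, PPP1R15A and SESN2). The BCL2 family gave 1 of 12 (8.33%, MCL1) and SOX factors 1 of 5 (20%, SOX9). KLF and SP factors gave 1 of 17 (5.88%, KLF4) and RNA-binding motif genes 1 of 30 (3.33%, RBM48). In lists this small a single member already exceeds the 1.96% of all expressed genes, so nothing is read from these shares. The same holds for the lists of NF-kappaB feedback and MAPK feedback.

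Members were shorter genes with fewer exons than the expressed genes at large. In the GENCODE v44 annotation of GRCh38, the median span of a member was 23884 bp, against 34685.5 bp for expressed genes, 43834.5 bp for the genes that dipped without an overshoot and 23611 bp for those that overshot without a dip. The median number of exons in the canonical transcript was 6, against 10, 11 and 6. Thus in span and exons the members resembled the genes that overshot without a dip, not those that shared the dip. A single exon was found in 15 members (8.57%) and in 1.65% of expressed genes, and 1 or 2 exons in 34 (19.4%) and 5.29%. Of the members 42 (24.0%) spanned under 10000 bp and 25 (14.3%) over 100000 bp, against 16.8% and 19.1% of expressed genes. The longest were PDE4B with 582066 bp and AHR with 429794 bp and the shortest UQCC4 with 1005 bp and BLOC1S4 with 1491 bp.

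The mature transcript went the other way, with a median of 4228 bases for members, 3510.5 for expressed genes, 4519.5 for those that dipped without an overshoot and 3230 for those that overshot without a dip, so here the members were nearer to the genes that shared the dip. Its 3' untranslated region had a median of 2029 bases in members, 1415 in expressed genes and 1837 in those that only dipped. The AU-rich motif TATTTAT was present in that region of 99 of 174 members with a coding transcript (56.9%), in 36.5% of expressed genes and in 50.75% of the genes that dipped without an overshoot. Per kilobase of it the motif occurred 0.421 times in members, 0.315 times in expressed genes and 0.387 times in the genes that only dipped. Members whose exons overlap those of a gene on the other strand numbered 23 (13.1%, against 23.0% of expressed genes), among them NR1D1, BCL6, MCL1, BRD2, REST and NFE2L2, and for these the counts may hold reads of both.

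The number of exons differed with the time of crossing. The 55 members that crossed between 2 and 10 h had a median of 4 exons, the 77 of 10 to 24 h 6 and the 39 of 24 to 48 h 11, while the 4 of 48 to 72 h had 3. Median spans were 22260, 20580, 36872 and 17549.5 bp. The 34 members with 1 or 2 exons had median log2 ratios of -0.02 at 10 h and 1.51 at 24 h, and the 43 with over 10 exons of -0.90 and -0.02, although both began near -1 at 2 h (-1.05 and -1.01). At 24 h the ratio was above 0 for 82.4% of members with 1 or 2 exons and with 3 to 5 exons, for 87.2% with 6 to 10 and for 48.8% with over 10, against 56.6%, 41.4%, 25.8% and 8.53% of the expressed genes of these classes. Spearman's rho between exon number and the log2 ratio over the 175 members, which share libraries and are not independent, was -0.31, -0.35 and -0.17 at 10, 24 and 48 h. The same order held over the 8918 expressed genes with annotation, with rho of -0.34, -0.46 and -0.40, so it is not particular to the members. With span rho was weaker, at -0.13, -0.18 and -0.14 over the members.

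**Figure D5:**
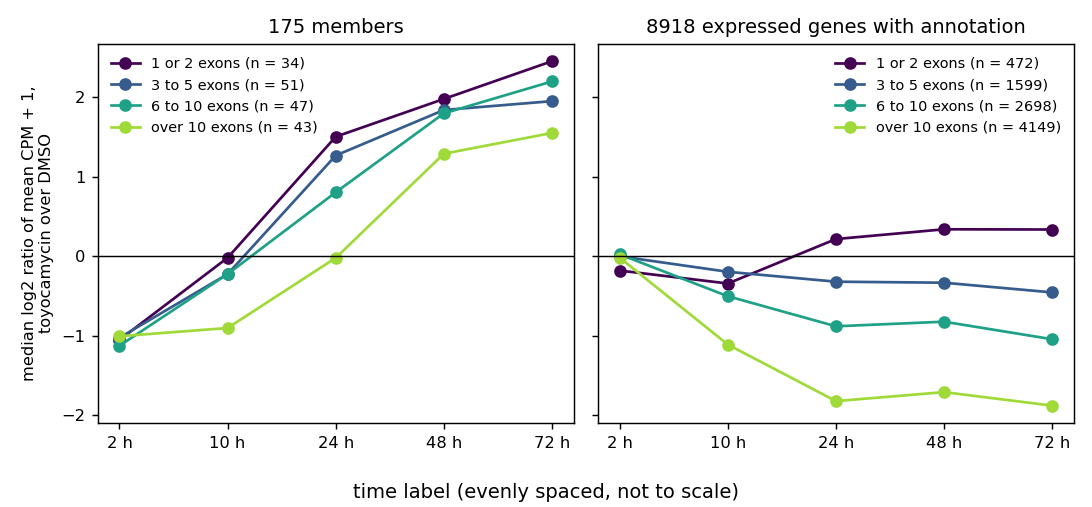
Median log2 ratio of mean CPM plus 1, toyocamycin over DMSO (y axis), at each time label (x axis, evenly spaced) for 4 classes of exon number, in the members (left) and in all expressed genes with annotation (right). At 24 h the members with 1 or 2 exons are at 1.51 and those with over 10 exons at -0.02, and over expressed genes the same classes are at 0.22 and -1.82.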

How the data were processed

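YB5 cells treated with toyocamycin or DMSO were profiled by RNA sequencing in 17 libraries, which were grouped by treatment and time from their labels. The authors aligned the reads to GRCh38 (Ensembl 100) with STAR 2.7.5a and deposited raw counts per gene from its gene counting mode, whose strand column was not given in the sources used here. The count table has 1 column more, named as a further DMSO library of 10 h, which matches no sample and was not used. A deposited table of the authors' edgeR comparisons, with fold changes and p-values, was not used. Of the 19141 gene identifiers, 19080 were matched to a symbol, and positions, exons and untranslated regions came from the canonical transcripts of GENCODE v44 on the same build.

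CPM values and log2 ratios with a pseudocount of 1 were computed from the counts, and libraries were scaled for tests with TMM factors after filterByExpr. The quasi-likelihood test of edgeR 4.0.16 (R 4.3.3), in its legacy form, called genes at a Benjamini-Hochberg adjusted p under 0.1, the threshold of the study's methods. The study used edgeR's glmTreat function instead, with its fold-change limit set so that no minimum change was required. The fit at 10 h and of the change from 10 to 48 h used all 17 libraries, and those at 24 and 48 h the 14 libraries without 10 h. DESeq2 1.42.0, other scalings and filters, a batch term, a replicate block and fits without single libraries were tried as alternatives. The script was tested on simulated data. The labels speak of biological triplicates without saying how cultures were kept apart.

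The members and gene lists were chosen with earlier results of these data known, and p-values of the rule's own contrasts are not given. The 40 members with the largest difference between the log2 ratios at 72 and 2 h are named. Values in every library are given for the 8 with the largest difference, the 5 deepest dips, the 5 highest DMSO means, the 5 highest and 5 lowest fold changes at 10 h and the members among immediate early, elongation, clock and MAPK feedback genes. For the genes next to a threshold, the values are those of the libraries that the threshold uses. Other members are named after their values were seen. Some genes and lists that these rules name are not reported here.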

Additional observations from a re-analysis of the deposited data

Results flagged for a closer look

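The toyocamycin effect differed between 10 and 48 h for most of the genes that dip and overshoot. In edgeR's test of that difference, with adjusted p under 0.1, the effect was higher at 48 h for 151 of the 175 and lower for 2, EGR3 and IER5L, with a median change of 2.47 on the log2 scale. Of all genes tested 20.1% were called higher and 20% lower.

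For EGR3, the DMSO libraries of 24 and 48 h were its highest controls, at 116 and 161 CPM against 80.5 and 68.9 CPM at 2 h and 55.2, 47.8 and 52.8 CPM at 72 h. For IER5L, DMSO rose from 30.8 CPM at 10 h to 77.8 CPM at 48 h, while toyocamycin gave 253 and 87.2 CPM in the 10 h libraries and 119.8 CPM in the 48 h library. The part of the controls in these calls was not tested.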

How the results depend on the processing

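The rule gave 105 members with thresholds of -1 and 1, and 167 to 215 with single libraries of 2 or 72 h left out. TMM scaling gave 193 members, of which 145 were shared with the 175. Members above 0 for good by 10 h numbered 55 with library totals, 95 with TMM, 108 with DESeq2 size factors and 22 with the mitochondrial genes as reference, and by 24 h 132 and, on the mitochondrial scaling, 65. With a ratio of 1 in place of 0, 13 had passed by 10 h and 85 by 24 h. Without single 10 h toyocamycin libraries the number by 10 h was 39 to 61. Members' median length over that of expressed genes was 0.689 by span and 1.20 by canonical transcript.

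At 10 h, library size alone gave 19 members higher and 74 lower with a median log2 fold change of -0.36, the mitochondrial scaling 3 higher with a median of -0.98, and a minimum log2 fold change of 1 gave 28 higher and 26 lower. Without single 10 h toyocamycin libraries 30 to 68 were higher and 37 to 63 lower, with medians from -0.26 to 0.31. The lower end for higher calls was without replicate 1.

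At 24 h the mitochondrial scaling gave 12 higher, 32 lower and a median of -0.38, library size alone 24 lower, and the minimum fold change and the DESeq2 Wald test 1 lower each. At 48 h 39 were higher and 4 lower on the mitochondrial scaling. The count of 1 lower at 48 h was 3 with library size alone, 2 with batch as a term and 0 with DESeq2 size factors, the fit of all 17 libraries, the minimum fold change and the DESeq2 Wald test. For the change from 10 to 48 h, the mitochondrial scaling gave 31 higher and 0 lower. The count of 2 lower was 1 with DESeq2 size factors, the form of edgeR 4, batch as a term and an adjusted p under 0.05, and 1 to 4 without single 10 h toyocamycin libraries. Under the other alternatives these counts stayed within 1.5 times those reported. The cause of these shifts was not tested.

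With the replicate number as a block, 38 members were higher and 43 lower at 10 h, 151 and 3 at 24 h, 171 and 1 at 48 h, and the change gave 159 and 2. Deviations of same-numbered libraries correlated at 0.28 at 2 h, where the number is also the batch, and from -0.11 to 0.05 at 72 h, where all libraries are of batch 1 and the numbers do not pair them. The block moved none of these counts by over 1.5 times. The single libraries of 24 and 48 h and the single DMSO library of 10 h limit all statements about those times.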
